A study of Homo sapiens with 19 samples.

Results

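The genes described here are the trefoil factors TFF1, TFF2 and TFF3, the disulfide isomerase relative AGR2 and the protease inhibitor SPINK4, all secretory luminal proteins. They were taken as every probe set (a group of short probes for 1 transcript) annotated to 1 of these 5 symbols only, and each gene had 1 probe set, so 5 of the 9546 genes tested are members. They were chosen by measured values of these data, as differing between the bone-seeking and the lung-seeking lines. Whether levels or strong-against-weak differences chose them is not stated, so every contrast between the organs is given as a description and is not tested. If such differences did, the p-values inside each organ draw in part on the values that chose the genes. RNA from 19 human cell lines, with 1 array each, was measured on an Affymetrix platform. All lines come from MDA-MB-231, a breast cancer line that lacks the oestrogen receptor programme, and were kept in serum-containing medium with selective drugs and harvested before confluence, per the labels. The series is about doubling of ploidy and metastasis. The strongly bone-metastatic lines were 1833, 2274, 2268 and 2269, and the weakly bone-metastatic lines were 2293, 2295 and 2296. The strongly lung-metastatic lines were 4142, 4173, 4175 and 4180, and the weakly lung-metastatic lines were SCP21, SCP6 and SCP26. A hyper-ploid and a modal-ploid subline came from each of 1833 and 4175, and the parental MDA-MB-231 had 1 array. The labels do not say how the sublines were derived or whether a line is 1 clone. The line titled 2296 is called 2297 in its cell line label, and is written 2296 here. A group's replicates are different lines of 1 tumour cell line with no repeat of a line. An error therefore describes the spread between lines, and p-values measure that spread. The ploidy fit is an exception, with errors that come mainly from other genes.

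Trefoil factors are small secreted peptides folded by disulfide bonds into a compact clover-like domain. Mucous cells of the gut release them together with mucins, and they help to repair epithelium. In the breast, TFF1 and TFF3 are known as oestrogen-responsive genes of luminal tumours. AGR2 is an endoplasmic reticulum protein of the disulfide isomerase family needed for mucin folding, and is likewise a luminal and secretory cell gene. SPINK4 is a Kazal-type inhibitor of serine proteases made by goblet cells.

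Levels are signals recovered from the deposited ratios and scaled to the same median on every array, with a common median of 131. The deposited ratios fall into 2 sets with separate divisors, 10 arrays for the parental line, the bone lines and the 1833 sublines, and 9 arrays for the lung lines and the 4175 sublines. Every test below compares groups within a set or blocks the line of origin. The error of the bone and lung tests is pooled over the 14 lines of both organs, and so over both array sets. A bone line against a lung line is also 1 array set against the other, so organ, array set and array handling cannot be told apart. Spike-in controls, averaged as log2 levels before scaling, lay between 11.3 and 11.7 for the bone lines, between 10.2 and 10.99 for the lung lines and between 9.59 and 9.83 for the ploidy sublines. The 6 markers of MDA-MB-231 fixed for the check of identity, VIM, CD44, LGALS1, S100A4, CAV1 and PLAU, exceeded each array's 40th percentile of signal on 19 of 19 arrays. Of 9 markers of luminal lines, KRT19, EPCAM and GATA3 exceeded it on 19 arrays, SPDEF and the oestrogen receptor ESR1 on 16, FOXA1 on 3 and the cadherin CDH1 on 1, and the progesterone receptor PGR and the oestrogen target GREB1 on 0.

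All 5 members passed the filter on low signal, which asked for a level above the array's own 40th percentile on at least 2 arrays. TFF1, TFF2 and SPINK4 were above it on 11 arrays each, AGR2 on 13 and TFF3 on 14. In the lung set of 9 arrays TFF2 was above it on 1 array, TFF1 on 2, AGR2 on 3, SPINK4 on 4 and TFF3 on 5. In bulk RNA, fewer cells with a transcript and less transcript per cell cannot be told apart.

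The trefoil factors were bright in the bone lines and dim in the lung lines. TFF1 had signals of 664 to 2880 with a median of 2292 in the 7 bone lines, against 4.02 to 225 with a median of 62.3 in the 7 lung lines. TFF2 ran from 181 to 1291 with a median of 1074 in bone lines, against 19.4 to 155 with a median of 45.8 in lung lines. TFF3 ran from 181 to 1171 with a median of 735 in bone lines, against 32.2 to 171 with a median of 88.0 in lung lines. None of the 3 overlapped between organs, as was the case for 3.5% of all genes, and nothing is read from it because of how the genes were chosen. The mean log2 level was higher in bone lines by 4.61 for TFF1, 3.78 for TFF2 and 2.71 for TFF3, on the log2(signal + 16) scale that all differences here use and that understates the change of dim genes.

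AGR2 was also brighter in bone lines, from 175 to 1800.1 with a median of 1015, against 2.33 to 299 with a median of 33.4 in lung lines. The ranges of AGR2 overlapped, because the lung line 4173 at 299 stood above the weak bone line 2293 at 175. Its mean log2 level was higher by 3.48 in bone lines. SPINK4 had nearly the same mean log2 level in both organs, 7.12 in bone lines and 6.94 in lung lines. It ran from 28.5 to 347 in bone lines, against 23.4 to 451 in lung lines, and it separated strong from weak lines inside each organ instead. Such a separation was seen for 27.6% of all genes in bone lines and 19.8% in lung lines. The summed signal of the 9 luminal markers, of which the keratin KRT19 is the brightest, was 4160 to 5661 in bone lines against 2647 to 3763 in lung lines. The markers did not move together. Mean log2 levels of KRT19 and SPDEF were higher in both bone groups than in both lung groups. KRT19 had 11.5 and 11.8 in strong and weak bone lines, against 10.9 and 10.7 in strong and weak lung lines. EPCAM and ESR1 were lower in both bone groups, EPCAM with 7.44 and 7.58 against 8.11 and 7.85. GATA3 and FOXA1 had no single direction. The part of these markers in the members' values was not tested.

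**Figure D1:**
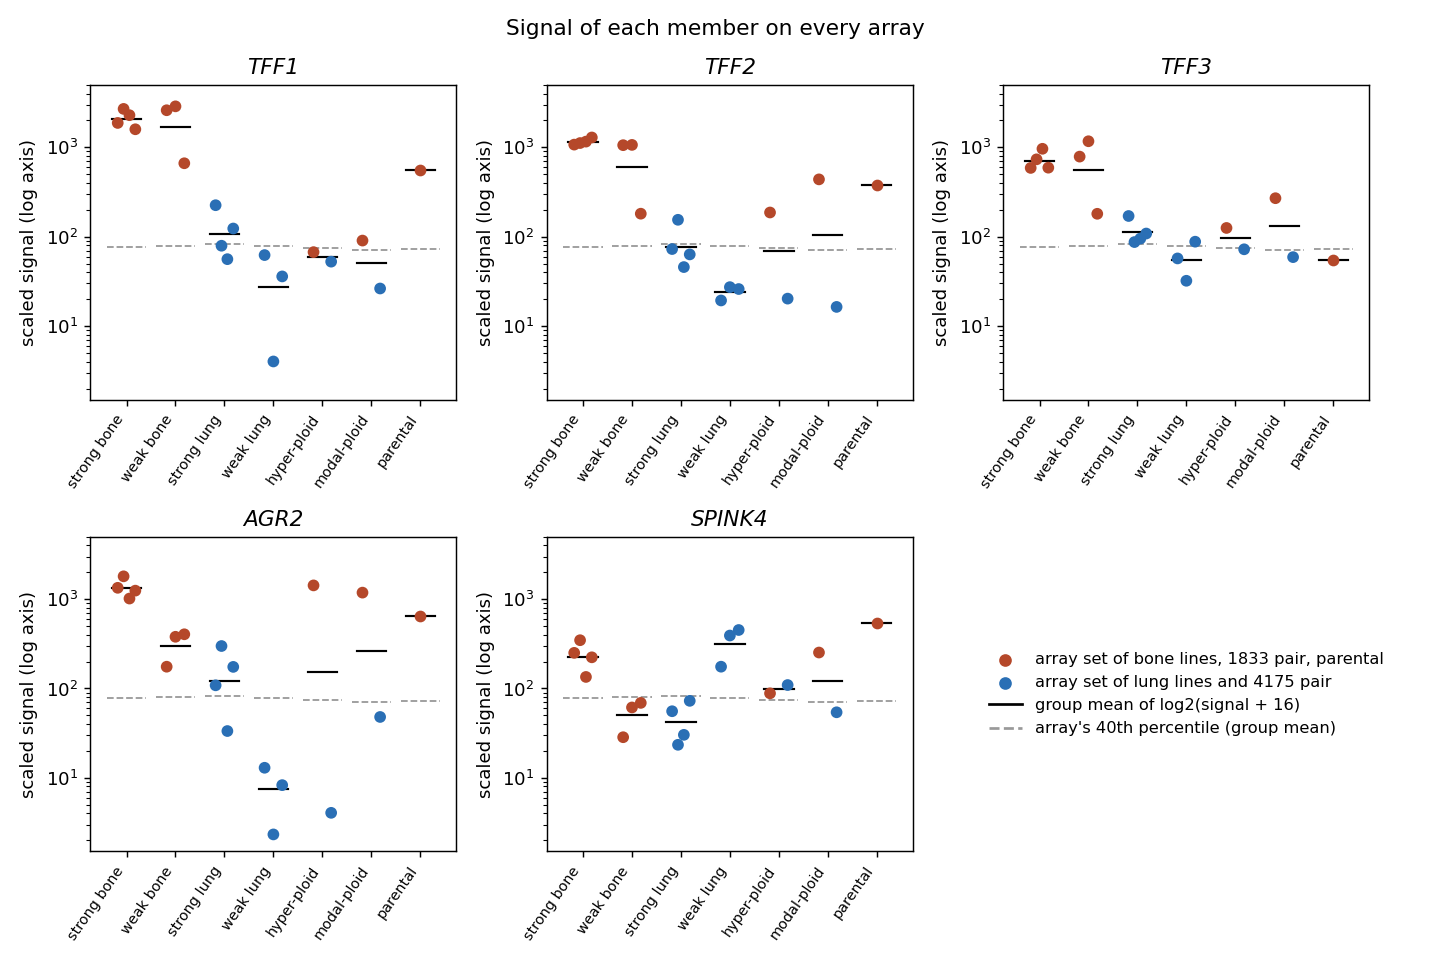
Scaled signal (log axis) of each gene on all 19 arrays by group, with the array sets in separate colours, the group mean as a black bar and the mean 40th percentile of signal as a dashed line. TFF1 lies at 664 and above in the bone lines and at 225 and below in the lung lines, and SPINK4 has its weak lung lines at 175 to 451 against strong lung lines at 23.4 to 72.7.

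The parental array gave a first point of comparison inside the bone set. TFF1 stood at 552 and TFF2 at 381 on it, and TFF1 was below all 7 bone lines there. TFF2 on the parental array lay above the weak line 2296 and below the other 6 bone lines. TFF3 was at 54.97, below its array's 40th percentile and below every bone line. AGR2 was at 639, above the weak bone lines and below the strong ones. SPINK4 was at 534, above each of the other 18 arrays. With 1 parental array these are single values with no replicate check.

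No trefoil factor was called between strong and weak bone lines, while AGR2 and SPINK4 were higher in the strong ones. Adjusted p-values below come from limma over 9546 genes with Benjamini-Hochberg adjustment, and a gene is called where that is under 0.05. Between strong and weak bone lines 11.7% of all genes were called, 6.85% higher and 4.82% lower (654 and 460 genes, or 716 and 797 when a trimmed mean was made common instead of the median), and 2 of the 5 members were, AGR2 and SPINK4, both higher. A fit over the 7 bone lines alone called 1113 genes, with limma adjusted p = 0.00807 for AGR2 and 0.0136 for SPINK4.

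TFF1 had signals of 1877, 2696, 2292 and 1595 in the strong bone lines 1833, 2274, 2268 and 2269, against 2604, 2880 and 664 in the weak lines 2293, 2295 and 2296. The 2 brightest weak lines lay among or above the strong ones, and 2296 lay below them all. The log2 difference was 0.27 (SE 0.55, 95% interval -0.90 to 1.45, limma adjusted p = 0.805). TFF3 likewise had its highest signal in 2295 and its lowest in 2296. It had 589, 735, 965 and 593 in the strong lines, against 789, 1171 and 181 in the weak lines, a log2 difference of 0.33 (SE 0.48, interval -0.69 to 1.36, limma adjusted p = 0.718). The groups overlapped here too.

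TFF2, whose protein holds a pair of trefoil domains where the other family members hold 1, had the smallest spread of the 5 genes among strong bone lines (SD 0.11 on the log2 scale, n = 4). Its signals were 1074, 1118, 1160 and 1291 there, against 1059, 1066 and 181 in the weak lines. The groups did not overlap, as 27.6% of all genes did not, but the gap between 1074 and 1066 was small. The log2 difference was 0.94 (SE 0.49, interval -0.10 to 1.98, limma adjusted p = 0.235). Without 2296 the log2 differences were -0.40 for TFF1, -0.44 for TFF3 and 0.12 for TFF2, none of them called, so the 1 weak line set the sign of the first 2.

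AGR2 rose in strong bone lines. It had 1339, 1800.1, 1015 and 1244 in 1833, 2274, 2268 and 2269, against 175, 379 and 404 in 2293, 2295 and 2296. Every strong line lay above every weak line, where 27.6% of all genes did not overlap in either direction. The log2 difference was 2.08 (SE 0.48, limma adjusted p = 0.0142, higher in 4 of 4 lines). The call was lost without the weak line 2293 (log2 difference 1.71, limma adjusted p = 0.0728), with a pseudocount of 1 (adjusted p = 0.0526) and on the deposited ratios (adjusted p = 0.0658), with a difference of 2.14 in both. Over all 16 alternatives its adjusted p ran from 0.00106 to 0.0728.

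SPINK4 rose as well. It had 250.5, 347, 135 and 223 in the strong bone lines, against 28.5, 61.3 and 69.0 in the weak lines, and all 3 weak lines were below the 40th percentile of their arrays. The log2 difference was 1.87 (SE 0.39, limma adjusted p = 0.00802), at least 2.55-fold when the weak lines are set to that percentile. SPINK4 and AGR2 put the 7 bone lines in the same order, with 2274 first, then 1833, 2269, 2268, 2296, 2295 and 2293.

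Upstream sequence of these 2 genes is shown because they were the only members with a promoter entry. RefSeq's promoter table for GRCh38.p14 held AGR2 and SPINK4, and TFF1, TFF2 and TFF3 were not matched in it. Each run is the 150 bases before the annotated start, 5′ to 3′ on the gene's strand. Capitals mark 2 motifs, both chosen after the sequences were read. The first is ATAAATA, which resembles the box that positions the start of transcription in many genes. The second holds the core recognised by the zinc finger family of GATA3, and is spelled AGATAA.
AGR2, chr7:16805000-16805149, minus strand: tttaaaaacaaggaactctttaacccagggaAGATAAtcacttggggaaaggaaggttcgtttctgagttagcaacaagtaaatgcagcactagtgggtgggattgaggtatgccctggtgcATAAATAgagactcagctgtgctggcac
SPINK4, chr9:33240017-33240166, plus strand: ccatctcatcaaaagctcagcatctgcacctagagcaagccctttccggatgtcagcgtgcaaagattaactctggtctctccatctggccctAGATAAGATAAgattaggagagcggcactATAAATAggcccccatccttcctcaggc
ATAAATA began 28 bases before the start in both genes. AGATAA stood once in AGR2, from base -119 to -114, and in SPINK4 at -57 to -52 and at -52 to -47, overlapping by 1 base. Searched on both strands, ATAAATA was present in 2.40% and AGATAA in 5.17% of the 35116 promoters cut to the same 150 bases. The forkhead motif TGTTTAC, in 1.73% of them, and the palindromic oestrogen response element, in 0.0313%, had 0 matches in either run. A match of letters describes the sequence and says nothing of what binds there.

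The means of strong and weak lung lines were compared inside the second array set, with the error pooled over the bone and lung lines. Of all genes 8.85% were called, 3.36% higher and 5.49% lower (321 and 524 genes, or 571 and 600 after quantile normalisation). AGR2 was called higher and SPINK4 lower, and the 3 trefoil factors were not called. A fit over the 7 lung lines alone called 441 genes, with limma adjusted p = 0.0294 for AGR2 and 0.00908 for SPINK4.

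AGR2 had 109, 299, 33.4 and 174 in the strong lung lines 4142, 4173, 4175 and 4180, against 13.0, 2.33 and 8.29 in the weak lines SCP21, SCP6 and SCP26. All 3 weak lines were below the 40th percentile of their arrays and 3 of 4 strong lines above it, 4175 being the exception. The log2 difference was 2.56 (SE 0.48, limma adjusted p = 0.00465, higher in 4 of 4 lines), at least 1.47-fold against the percentile level. AGR2 was thus called higher in the strong lines of either organ.

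SPINK4 fell in strong lung lines. It had 55.6, 23.4, 30.3 and 72.7 in 4142, 4173, 4175 and 4180, against 175, 392 and 451 in SCP21, SCP6 and SCP26. All 4 strong lines were below the 40th percentile and all 3 weak lines above it. The log2 difference was -2.51 (SE 0.39, limma adjusted p = 0.00119), at least 3.34-fold lower. Its strong-against-weak difference therefore had opposite signs in bone and in lung lines, a contrast between organs that may have been part of the choice of genes and is not tested. If it was, the p-values of SPINK4 inside each organ rest in part on the values that chose it.

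TFF1 had 225, 79.3, 56.1 and 124 in the strong lung lines, against 62.3, 4.02 and 36.0 in the weak ones, and the groups overlapped at 4175 and SCP21. The log2 difference was 1.51 (SE 0.55, interval 0.33 to 2.68, limma adjusted p = 0.111). All 3 weak lines were below the 40th percentile, and the fold between group means is at least 1.31 when they are set to it. The strong lines 4173 and 4175 were below the 40th percentile of their arrays as well. Without SCP6 the log2 difference of TFF1 was 0.95 (limma adjusted p = 0.364). TFF2 had 72.8, 155, 45.8 and 63.4 in strong lines, against 19.4, 27.3 and 26.0 in weak lines, without overlap, as was so for 19.8% of all genes. Its log2 difference was 1.21 (SE 0.49, interval 0.17 to 2.26, limma adjusted p = 0.146). Of the 7 lines only 4173 was above the 40th percentile, so no fold is given, and the gene passed the filter through the bone set. TFF3 had 171, 87.2, 95.4 and 109 in strong lines, against 57.2, 32.2 and 88.0 in weak lines, a log2 difference of 0.84 (SE 0.48, interval -0.19 to 1.86, limma adjusted p = 0.321), and without SCP6 it was 0.55 (adjusted p = 0.629). All 3 trefoil differences were on the higher side and none passed the adjusted threshold.

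**Figure D2:**
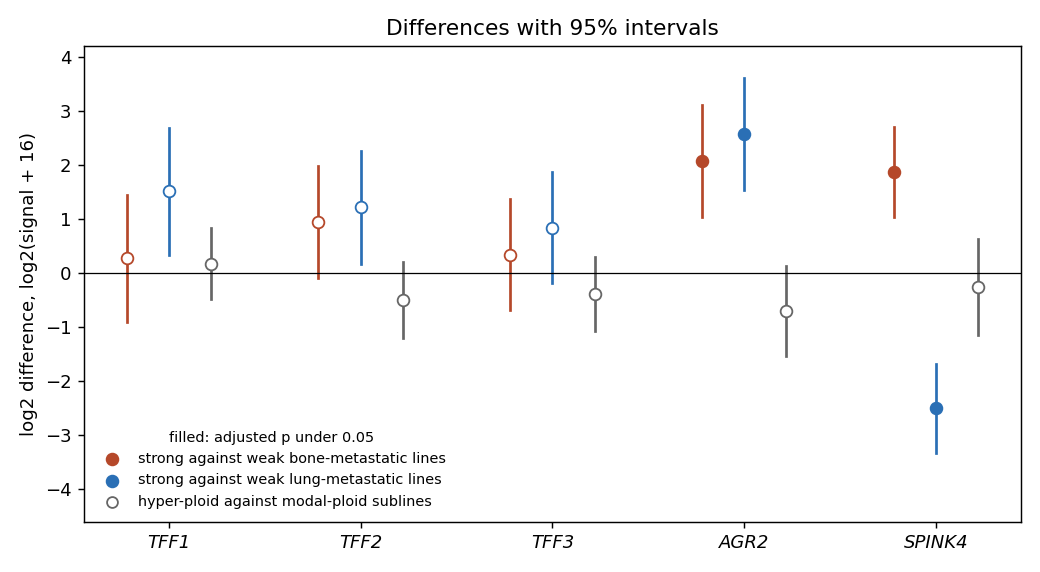
Log2 difference (points) with its 95% interval (lines) for each gene in strong against weak bone lines, strong against weak lung lines and hyper-ploid against modal-ploid sublines, with filled points for adjusted p under 0.05. AGR2 is higher in both organs (2.08 and 2.56), SPINK4 is higher in bone (1.87) and lower in lung (-2.51), and the other points are open.

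The ploidy comparison asks how a gain in DNA content moves these genes inside 1 line. None of the 5 was called between hyper-ploid and modal-ploid sublines, with limma adjusted p = 1 for each. Of all genes 0.0105% were called, which is the single gene PRKCZ, named after its value was seen, and 504 genes had an unadjusted p under 0.05. The design has 2 sublines a side, each set against its partner from the same line.

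In the 1833 pair AGR2 was bright on both arrays, with 1425 in the hyper-ploid subline and 1183 in its modal-ploid partner. SPINK4 had 88.3 in the hyper-ploid subline against 253 in the modal-ploid one, a log2 difference of -1.37. TFF2 had 187 in the hyper-ploid subline against 439 in the modal-ploid one, and TFF3 had 125 in the hyper-ploid subline against 269.9. Single arrays stand behind these values.

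In the 4175 pair most values were dim. AGR2 had 4.06 in the hyper-ploid subline against 48.0 in the modal-ploid one, both below the 40th percentile, and SPINK4 had 109 and 54.2 in the same order. The 4175 pair differed in sign from the 1833 pair for all 5 genes. The pooled log2 differences were 0.17 for TFF1 (interval -0.49 to 0.83), -0.50 for TFF2 (-1.20 to 0.20), -0.39 for TFF3 (-1.08 to 0.30), -0.70 for AGR2 (-1.53 to 0.12) and -0.26 for SPINK4 (-1.15 to 0.62). This fit had 1 residual degree of freedom per gene and 11.5 borrowed from all genes. The intervals therefore reflect mainly the spread of other genes and understate how far the pairs disagreed. Both pairs of SPINK4 (-1.37 for 1833 and 0.84 for 4175) and both pairs of AGR2 (0.27 for 1833 and -1.67 for 4175) lay outside them.

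The 1833 sublines also differed from the original line 1833 in their trefoil genes. TFF1 had 67.3 in the hyper-ploid subline and 90.6 in its modal-ploid partner, against 1877 in line 1833. The mean of the 1833 sublines was lower than the line by 4.33 on the log2 scale, the lowest of all 9546 genes in this difference. Line 1833 is 1 of the bone lines by whose values the genes were chosen. Nothing is therefore read from this rank or from the shares of all genes that follow. TFF2 differed by -1.84 and TFF3 by -1.59, while 5.55% of all genes were lower and 6.02% higher by over 2-fold. AGR2 stayed within 0.04 of the line, at -0.04, and SPINK4 was at -0.67. Within their array set, the sublines of 1833 thus had AGR2 inside the range of the strong bone lines and TFF1 below every bone line and the parental array.

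For 4175 the values of sublines and line were closer together. The mean of the sublines differed from the line by -0.42 for TFF1, -0.85 for TFF2, -0.45 for TFF3 and -0.46 for AGR2, and by 1.02 for SPINK4, where 5.11% of genes were higher and 4.89% lower by over 2-fold. The ploidy arrays had an overall signal before scaling of 323 to 360 (mean without the outer 2% at each end) against 499 on the other arrays, and lower spike-ins, and the part of this in the difference between sublines and lines was not tested.

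**Figure D3:**
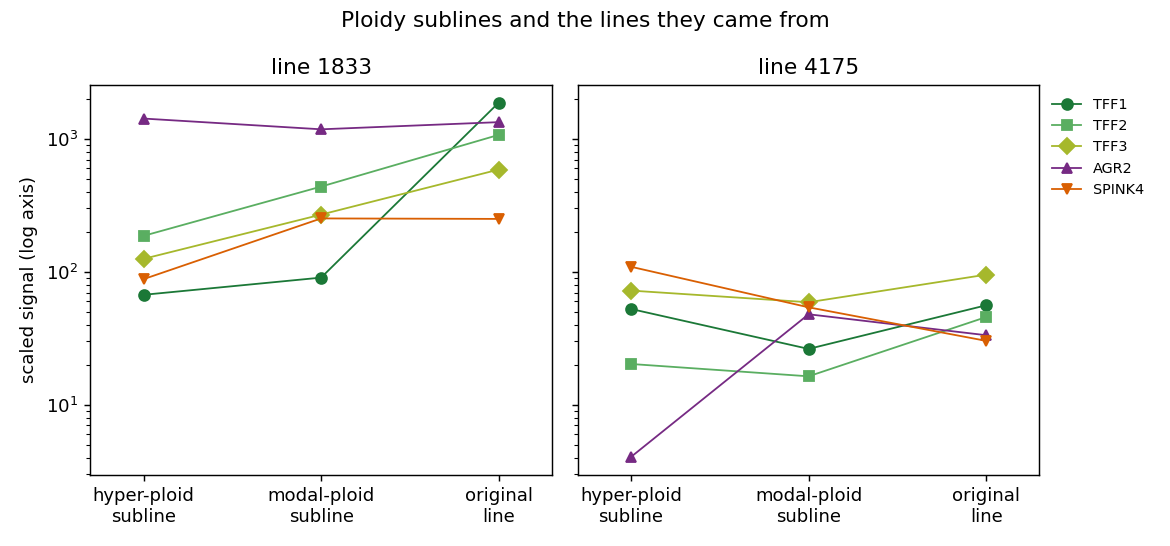
Scaled signal (log axis) of the 5 genes in the hyper-ploid subline, the modal-ploid subline and the original line, 1 array each, for 1833 (left) and 4175 (right). TFF1 is at 67.3 and 90.6 in the 1833 sublines against 1877 in the line, while AGR2 is between 1183 and 1425 on all 3 arrays.

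The trefoil genes were next compared with each other over the arrays. They lie side by side on chromosome 21, with TFF3, TFF2 and TFF1 in that order in RefSeq's annotation, between ABCG1 and TMPRSS3. Across the 10 arrays of the bone set Pearson's r of log2 levels was 0.80 for TFF1 with TFF2, 0.74 for TFF1 with TFF3 and 0.84 for TFF2 with TFF3, and Spearman's rho was 0.58, 0.88 and 0.67. Across the 9 arrays of the lung set r was 0.57, 0.91 and 0.56 and rho 0.65, 0.72 and 0.63 in the same order of pairs, mostly over signals below the 40th percentile, which TFF1 passed on 2 and TFF2 on 1 of the 9 arrays. These are descriptions over arrays that share a scaling and a tumour of origin. On the parental array the genes parted, with TFF1 and TFF2 above the 40th percentile and TFF3 below it.

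AGR2, on chromosome 7, and SPINK4, on chromosome 9, were related in opposite ways in the 2 organs. Their r was 0.99 over the 7 bone lines and -0.81 over the 7 lung lines, values that include the difference between strong and weak lines. The opposite signs of r go with the opposite strong-against-weak differences of SPINK4 given above. That contrast may have been part of the choice of genes, so nothing further is read from the signs. AGR2 with TFF2 had r = 0.34 over the bone lines and 0.93 over the lung lines.

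**Figure D4:**
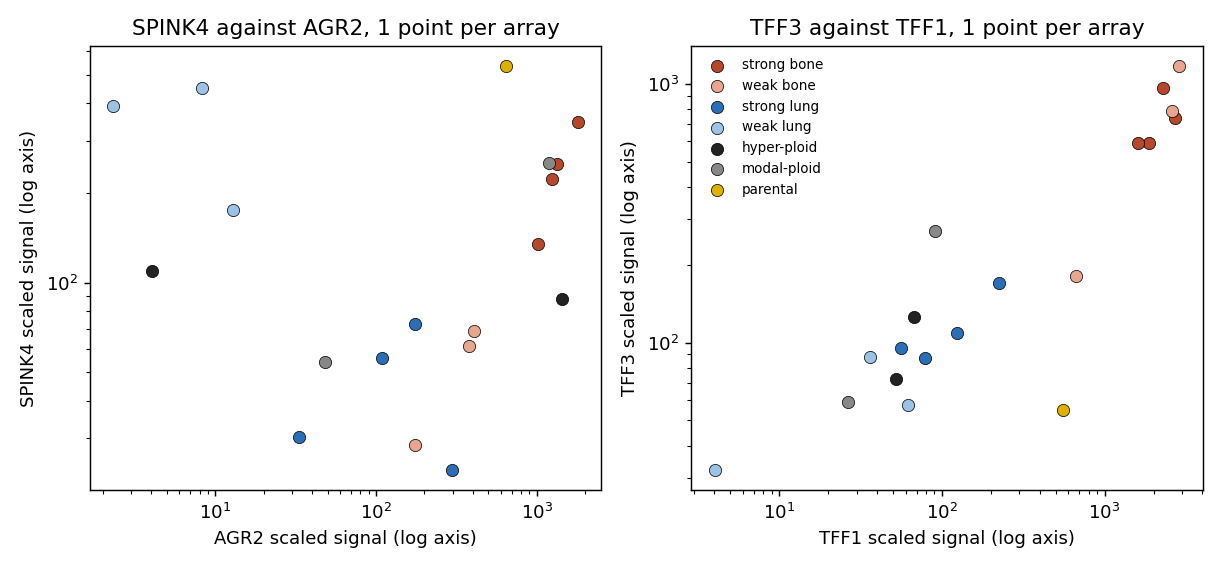
Scaled signals on log axes, 1 point for each of 19 arrays coloured by group, for SPINK4 against AGR2 (left) and TFF3 against TFF1 (right). Bone lines rise together in both panels, with r = 0.99 for AGR2 and SPINK4 over 7 lines, and lung lines run downward in the left panel with r = -0.81. Both r values include the difference between strong and weak lines.

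Genes with the most similar pattern were found as the 3 with the highest r to each member over 19 arrays, after the mean of each array set was taken out. For SPINK4 they were the hyaluronan-degrading CEMIP (r = 0.92), the matrix protein MATN2 (0.92) and the vesicle transport protein RAB11FIP1 (0.88). CEMIP too had mean log2 levels of 8.64 in strong and 6.52 in weak bone lines, against 6.68 in strong and 10.2 in weak lung lines. For TFF2 they were the trypsinogens PRSS2 (0.80) and PRSS3 (0.79), close paralogues whose probes may share signal, and the receptor SIGIRR (0.77). For TFF3 they were PRSS3 (0.81), the secreted serpin SERPINF1 (0.81) and TP53TG1 (0.79). For AGR2 they were OSBPL10 (0.77), RBMS2 (0.77) and the MAP kinase phosphatase DUSP6 (0.75), and for TFF1 they were CGGBP1 (0.84), ZNF430 (0.83) and MC3R (0.82), a receptor gene with signals of 6.46 to 98.2. CGGBP1 and ZNF430 hardly differed between strong and weak lines. CGGBP1 had mean log2 levels of 10.8 in strong and 10.7 in weak bone lines, and 10.2 in strong and 10.1 in weak lung lines. The part of the ploidy arrays, with their lower signal before scaling, in these r values was not tested.

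Other genes of the same pathways were counted from fixed lists, given beside the 11.7% of all genes called in bone lines and the 8.85% called in lung lines. The lists were chosen with earlier results of these data known, so their counts are descriptions and no independent comparison with those shares. With 7 to 14 genes tested a list, the counts are small. Of 16 partners of trefoil factors and relatives of AGR2, 7 were tested. In strong bone lines 1 was higher, CXCR4, the chemokine receptor reported to respond to TFF2 (log2 difference 2.35, SE 0.33, limma adjusted p = 0.000584). Lower there were 2, the mucin MUC1 (-1.01, SE 0.29, limma adjusted p = 0.039) and FCGBP, a mucus protein that binds TFF3 (-1.55, SE 0.38, limma adjusted p = 0.0185). Their median difference was -0.39, against 0.01 over all genes. In lung lines 0 of the 7 were called by limma, with a median of -0.0038 against -0.01 over all genes, and MUC1 stood at -0.61 (adjusted p = 0.228). The gel-forming mucins MUC2 and MUC5AC had signals of at most 131 and 218 on any array.

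Of 19 disulfide isomerases and folding or stress sensors of the endoplasmic reticulum, where AGR2 resides, 14 were tested. Limma called 3 of the 14 in bone lines and 2 in lung lines, against 11.7% and 8.85% of all genes. In strong bone lines the chaperone HSP90B1 (1.07, SE 0.25, limma adjusted p = 0.0147) and the isomerase PDIA6 (0.71, SE 0.19, adjusted p = 0.0316) rose and the secretory transcription factor CREB3L1 (-0.74, SE 0.22, adjusted p = 0.0447) fell. Short of the threshold there, the chaperone HSPA5 stood at 0.84 (limma adjusted p = 0.0567) and the isomerase PDIA4, named after its value was seen, at -0.75 (adjusted p = 0.0516). In strong lung lines SPDEF, the goblet cell transcription factor (2.46, SE 0.49, limma adjusted p = 0.00628), and ERN2, an endoplasmic reticulum stress sensor of mucous cells (1.83, SE 0.35, adjusted p = 0.00511), rose and 0 fell, with PDIA4 at -0.75 (adjusted p = 0.0634). The median differences were -0.03 in bone and -0.18 in lung lines, against 2.08 and 2.56 for AGR2.

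Of 17 oestrogen receptor and luminal genes 14 were tested. Limma called 2 of the 14 in bone lines, where 11.7% of all genes were called, and 4 in lung lines, where 8.85% were. In strong bone lines GATA3, a luminal transcription factor (1.13, SE 0.26, limma adjusted p = 0.0132), and the survival gene BCL2 (0.84, SE 0.25, adjusted p = 0.0408) rose. In strong lung lines GATA3 fell (-0.89, SE 0.26, limma adjusted p = 0.0463), as did the protease CTSD (-1.06, SE 0.26, adjusted p = 0.0212). The carbonic anhydrase CA12 (0.88, SE 0.21, limma adjusted p = 0.0179) and the corepressor NRIP1 (1.09, SE 0.31, adjusted p = 0.0408) rose there. The signs of GATA3 were those of SPINK4 in both organs and those of AGR2 in bone lines only, since AGR2 was higher in strong lung lines (2.56). A link between GATA3 and the members was not tested. The list's medians were -0.08 in bone and 0.15 in lung lines.

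Of 22 other secretory epithelial products 13 were tested. Of the 13, limma called 3 in bone lines and 1 in lung lines, beside 11.7% and 8.85% of all genes. In strong bone lines the tetraspanin TSPAN8 rose (1.39, SE 0.24, limma adjusted p = 0.00278), and the antiprotease SLPI (-1.27, SE 0.35, adjusted p = 0.0311) and the siderophore binder LCN2 (-5.13, SE 0.31, adjusted p = 5.89e-07) fell. In strong lung lines LCN2 fell (-3.92, SE 0.31, limma adjusted p = 1.33e-05) and 0 rose. LCN2, the only gene of this list called in both organs, was thus lower where AGR2 was higher in either organ. The medians were -0.05 in bone and 0.20 in lung lines.

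Genes beside the members on the chromosome were counted in the same way, against 11.7% of all genes called in bone lines and 8.85% in lung lines. Of 8 around the trefoil cluster 3 were tested, and limma called 0 in bone and 0 in lung lines. ABCG1, next to TFF3, stood at 0.06 between strong and weak bone lines (limma adjusted p = 0.91). Of 8 around AGR2 6 were tested, of which limma called 0 in bone lines and 1 in lung lines, HDAC9 (-0.95, SE 0.28, adjusted p = 0.0467). TSPAN13, beside AGR2, stood at 1.05 in lung lines (limma adjusted p = 0.0511). In the ploidy sublines limma called 0 members of any of these lists.

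Markers of other cell types were read on the same arrays. Of 10 markers of intestinal epithelium, the defining genes CDX1, CDX2, VIL1, FABP1, CDH17 and KRT20 were above the 40th percentile on 0 arrays, FCGBP on 4, CLCA1 on 8 and MUC2 and LGALS4 on 10. Their summed signal was 307 to 576 in strong and 478 to 605 in weak bone lines, against 313 to 469 in strong and 315 to 397 in weak lung lines. Of 4 gastric markers measured, MUC6 was above it on 1 array, GKN1 on 2, MUC5AC on 11 and PGC on 12. Of 5 leukocyte markers measured, PTPRC and LYZ were above it on 0 arrays, CD14 and CD3E on 13 and ITGAM on 14. Of 6 fibroblast and endothelial markers DCN and COL1A1 were above it on 19 arrays, PECAM1 on 17, COL1A2 on 16, and LUM and CDH5 on 0. The endothelial PECAM1 was lower in strong than in weak bone lines (-1.59, limma adjusted p = 0.00146) and higher in strong than in weak lung lines (1.12, adjusted p = 0.0125), and the collagen COL1A1 was also higher in strong lung lines (limma adjusted p = 0.0139). The part of these markers in the members' values was not tested.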

How the data were processed

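The authors deposited linear ratios, array signals divided by a factor per array and a divisor per probe set, read from the values alone; the software is not given in the sources used here. Ratios ran from 0.00115 to 361. In the first set of 10 arrays the median ratio was 1 for 91.6% of probe sets, so ratios compare only within a set. They were whole multiples of a step, which returned signals in units of 0.1 for 22281 of 22283 probe sets (tolerance 0.01 steps at low values, largest distance 0.0588). Depth does not apply to arrays, whose number limits the precision.

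Signals were scaled to a common median and taken as log2(signal + 16). Probe sets above their array's 40th percentile on at least 2 arrays were kept, and the brightest of a gene stood for it. Symbols came from the platform annotation (19069 probe sets with 1, 1043 with several, 2169 with none), of which 19057 matched RefSeq. R 4.3.3 and limma 3.58.1 (lmFit, eBayes) fitted 14 lines, 1 mean per group, and separately the 4 ploidy arrays, blocked by their line because both sublines of a pair share it. The fits were tested on simulated data. Where a dim group lay below the 40th percentile on every array, a fold is given as at least the value against that percentile, or left out where that is under 1, and the log2 difference beside it is the fitted one. Signals were recovered in Python 3.11.15 with numba 0.67.0. Alternatives were other scalings, pseudocounts and filters, the deposited ratios, each probe set on its own, fewer lines and no block. No column was left unused. All 5 members are named, with the 3 genes most like each and up to 4 genes per list and comparison. Members and lists were chosen with earlier results of these data known.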

Additional observations from a re-analysis of the deposited data

Results flagged for a closer look

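SPINK4 was flagged because its strong-against-weak difference differed between organs. Every strong bone line was above every weak bone line and every strong lung line was below every weak lung line. Strong and weak lines did not overlap, in either direction, for 27.6% of all genes in bone and 19.8% in lung. The strong-against-weak log2 difference in bone lines exceeded that in lung lines by 4.38. The difference between organs was not tested, since the genes were picked as differing between organs. In the groups of 4 lines no line stood apart from the other 3 by Dixon's test in any of the 5 genes.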

How the results depend on the processing

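SPINK4 in bone lines, AGR2 in lung lines and SPINK4 in lung lines kept direction and call under all 16 alternatives, with adjusted p of at most 0.0451, 0.0294 and 0.00908, and AGR2 in lung lines ran from 1.44 to 4.22 over them. AGR2 in bone lines lost its call with a pseudocount of 1 (2.14), on the deposited ratios (2.14) and without the weak line 2293 (1.71), and ran from 1.71 to 2.28 as each line was left out. TFF1 ran from -0.40 to 0.65 and TFF3 from -0.44 to 0.86 in bone lines, both negative only without 2296. The trefoil factors were called in no alternative. Without SCP6 the lung difference was 0.95 for TFF1 and 0.55 for TFF3. Genes called in bone lines numbered 1719 with each probe set on its own and 552 to 1253 as lines were left out, with 581, 552 and 612 without 2293, 2295 and 2296. In lung lines they numbered 1274 with each probe set on its own (more features tested), 441 in a fit over the 7 lung lines (fewer samples) and 502 to 999 as lines were left out, with 543 without 4173 and 502 without 4175. Between ploidy sublines 0 genes were called under quantile normalisation, a common trimmed mean, a pseudocount of 1, no filter, the deposited ratios, no replicate block for the line, or without the 1833 pair, and 22 with a stricter filter, against 1. Without the 4175 pair TFF1 turned to -0.36 and AGR2 to 0.27, and without the 1833 pair TFF2 turned to 0.16, TFF3 to 0.23 and SPINK4 to 0.84. In these a lone array a side was assumed to vary like the other groups. The other causes were not tested. With 3 or 4 lines a group, and the trefoil factors mostly below the 40th percentile in weak lung lines, small differences there could not be resolved.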
